A study of Mus musculus with 12 samples.

Results

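Translation factors are the proteins that bring a ribosome to an mRNA, find its start codon and move it along the message. The genes described here are the mouse protein-coding genes whose symbol starts with Eif and a digit or with Eef, without the eIF2 kinases (Eif2ak genes) and without Eif2s3y. The GRCm38 annotation holds 64 of them, the count table lists 63, and 52 had more than 1 CPM (counts scaled to a common library total) in at least 3 of 12 libraries and were tested, among 12488 tested genes of 48709 in all. Neutrophils were sorted as Ly6Ghi Ly6Cint CD11b+ CD45+ cells from C57BL/6N male mice of 8 to 10 weeks. The control group was 3 libraries from the spleens of untreated mice. The liver groups were 4 libraries at 24 hours and 5 libraries at 72 hours after 1 i.p. injection of carbon tetrachloride (CCl4, 1 mL/kg), a toxin that kills hepatocytes. Organ and injury changed together between the spleen and liver groups, no vehicle-injected group was analyzed here, and only the livers were digested with enzymes, so that these cannot be told apart. The labels do not say whether each library came from a separate animal, so the p-values measure only the spread between these libraries.

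Initiation starts with eIF2, which carries the initiator tRNA as a complex with GTP and is recharged by eIF2B. eIF3 holds the small ribosomal subunit, the eIF4 factors bind the cap of the mRNA and unwind it, and eIF1, eIF1A and eIF5 control the choice of the start codon. The 4E-binding proteins block the cap-binding protein eIF4E until the kinase mTOR phosphorylates them. In elongation, eEF1A brings the aminoacyl-tRNA, the eEF1B subunits recharge eEF1A, eEF2 moves the ribosome by a codon, and eIF5A helps at slow codons. Mature neutrophils are short-lived cells that have made most of their granule proteins already in the bone marrow.

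The libraries held between 1267089 and 3017403 counts on genes, so that 1 CPM was about 1 to 3 counts, and the translation factors together held 0.206% to 0.279% of these counts. Of the uniquely aligned reads, 2.71% to 3.18% per library were counted on a gene. The share of unaligned reads was under 2% in 72-hour replicates 2 and 3, at 1.91% in the lower of them, and at least 49.6% in every other library. All 10 neutrophil markers were detected, and their summed level was 1984 to 7760 CPM in the spleen, 1177 to 2879 CPM at 24 hours and 2149 to 2810 CPM at 72 hours. Against the spleen, 9 of the 10 fitted below 0 at 24 hours with 3 called lower, and 8 fitted below 0 at 72 hours with 5 called lower. At 72 hours the other 2 fitted above 0. Csf3r, the receptor for the growth factor G-CSF, was read at 463 to 569 CPM in the spleen, 278 to 404 CPM at 24 hours and 461 to 710 CPM at 72 hours. Ly6g, whose protein was used for the sort, had 29 to 104 counts in the spleen, 3 to 42 at 24 hours and 3 to 18 at 72 hours. Cd177 had 256 to 1101 counts in the spleen, 14 to 225 at 24 hours and 24 to 64 at 72 hours. The summed level of the 12 immature neutrophil markers was 2659 to 5054 CPM in the spleen, 973 to 1305 CPM at 24 hours and 1002 to 1543 CPM at 72 hours, with Elane and Ms4a3 at 0 in all libraries. Of these markers 8 were tested, and 6 were lower than in the spleen at both times, among them the granule gene Ltf. Most of the liver sums came from Mki67, whose groups overlapped. It had 1454, 1937 and 6244 counts in the spleen, 1277 to 1732 at 24 hours and 1451 to 3887 at 72 hours. Over all tested genes 4.4% were called lower than in the spleen at 24 hours and 2.71% at 72 hours. Spleen replicate 3 stood apart from the other 2 spleen libraries, with 647 Ltf counts against 3690 and 4517. Replicates 1 and 2 were much alike, with a chi-square per gene of 2.34, where counting error alone gives about 1. It was 30.7 and 34.0 between either of them and replicate 3, and at least 5.63 for any other 2 libraries of a group. The spread within the spleen group therefore comes mostly from replicate 3. The 8 hepatocyte markers summed to 2.32 to 6.11 CPM in the spleen, 14.1 to 19.8 CPM at 24 hours and 3.24 to 24.5 CPM at 72 hours, with Ttr and Apoc3 at 0. At 24 hours nearly all of this sum was Apoa2, with 31, 32, 18 and 22 counts against 5, 9 and 19 in the spleen. Each other hepatocyte marker had at most 2 counts in any 24-hour library. At 72 hours Alb reached 33 counts in replicate 3. In sorted bulk cells, fewer cells of a type and less RNA per cell cannot be told apart, and the part of these markers in the results below was not tested.

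Levels are compared between genes as normalized CPM per kb of exon, averaged over the 12 libraries. Eif2d, a factor that can place the initiator tRNA without eIF2 and also helps to recycle ribosomes, had the highest level at 178 CPM per kb. The next were Eif3j1, a loosely bound eIF3 subunit, at 39.8 CPM per kb and Eif2b4, the delta subunit of eIF2B, at 25.3 CPM per kb. Eef2kmt, which methylates eEF2, followed at 22.8 CPM per kb and Eif5b, the GTPase that joins the ribosomal subunits, at 17.2 CPM per kb. Each of these 5 genes has exon bases that an annotated gene on the other strand also covers. Among the factors without such bases Eef1a1 was highest at 16.7 CPM per kb, ahead of Eif1 at 13.1, Eif5a at 12.5, Eif5 at 11.7 and Eef2 at 10.8 CPM per kb. Eef1a1 and Eef2 are among the most abundant mRNAs of most animal cells, and here they were read at 12 to 245 and 28 to 163 counts per library.

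The shared bases were of different kinds. Eif2d (chromosome 1, 131153181 to 131187658, plus strand) shares 78 exon bases with Rassf5, of which 39 at chr1:131178600-131178638 are coding in both genes. Eif3j1 shares 1107 exon bases with Spg11, which lie in its untranslated region, and Eif5b shares 1643 with Rev1. As means of all libraries, these partners were read lower: Rassf5 at 30.4 CPM against 1312 CPM for Eif2d, Spg11 at 34.5 CPM against 232 CPM for Eif3j1, and Rev1 at 14.7 CPM against 168 CPM for Eif5b. Other partners were read higher than their members, such as Snx17 at 119 CPM against 65.6 CPM for Eif2b4. Gm17638 stood at 477 CPM against 2.76 CPM for Eif3d. The median level was 4.97 CPM per kb in the 13 tested members with shared bases and 1.45 CPM per kb in the 39 without. The same medians over all tested genes were 4.03 CPM per kb in 4972 genes and 1.46 CPM per kb in 7485 genes, so the translation factors stood close to the other genes on either side. The library kit marks the strand, but the strand option of the read counter is not given in the sources used here. Reads of Eif2d and of a transcript on the other strand therefore cannot be told apart. With 2.71% to 3.18% of the uniquely aligned reads counted on a gene, it was not tested which strand the counts of any member come from, and this holds for the members without shared bases as well.

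**Figure D1:**
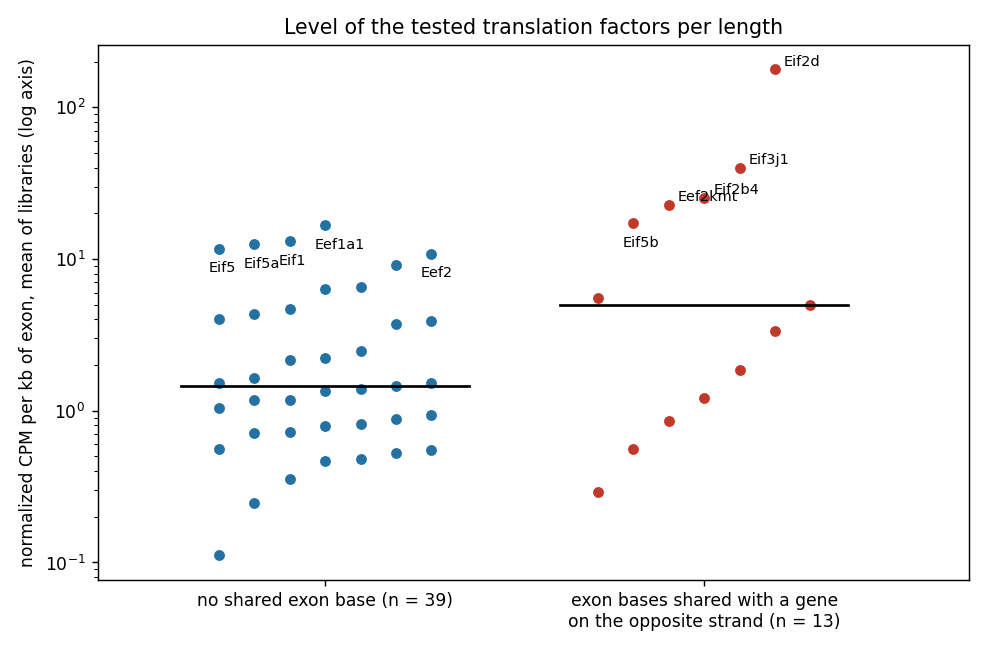
Mean normalized CPM per kb of exon (log axis) of each of the 52 tested translation factors, one point per gene, split by whether any exon base is also covered by an annotated gene on the other strand; bars mark the medians, 1.45 CPM per kb without and 4.97 CPM per kb with shared bases. The 5 highest genes of each column are named, and Eif2d lies above all others at 178 CPM per kb.

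The other 11 factors did not pass the filter. Eef1a2, which replaces Eef1a1 in muscle and neurons, the egg form Eif4e1b and the methyltransferase gene Eef1akmt1 had no count in any library, where 3 counts per library is the level that a count of 0 allows. Eef1e1 and Eefsec, the selenocysteine elongation factor, had 1 count in 1 library. Eef1akmt2, Eef1akmt3, Eif2b3, Eif3m and Eif4ebp3 had at most 6 counts in any library. Eif3e had 2 to 5 counts in the 3 spleen libraries and at most 1 in each of the 9 liver libraries.

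At 24 hours after CCl4, 4 of the 52 tested factors differed from the spleen: Eif2d and Eif4ebp1 were higher and the elongation factor genes Eef1a1 and Eef1b2 were lower. To be called, a gene needed an adjusted p under 0.05 in edgeR's quasi-likelihood test, adjusted over all 12488 genes, and a log2 fold change of 0.5 or more in size. Over all tested genes 5.35% were called higher and 4.4% lower, so 2 members in each direction (3.85%) is no larger share than the background. An unadjusted p below 0.05 by edgeR was reached by 14 of the 52 factors and by 3267 of all 12488 tested genes. The fitted difference was below 0 for 43 factors and above 0 for 9, with a median log2 fold change of -0.66, or -0.41 when genes with a group at the floor of 3 counts per library are set to their bound. The median of all tested genes was -0.23, or -0.01 with such bounds.

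Eif4ebp1 (GRCm38 chromosome 8, 27260329 to 27276674, plus strand) encodes 4E-BP1, the best known blocker of cap-dependent initiation. Its normalized CPM were 14.4, 11.2 and 11.6 in the spleen, 33.4, 38.4, 26.2 and 30.6 at 24 hours, and 7.05, 9.67, 14.9, 18.1 and 26.0 at 72 hours. All 4 libraries of 24-hour neutrophils lay above all 3 of the spleen and, by a small margin, above all 5 of 72-hour neutrophils. The 24-hour level was 2.60-fold that of the spleen (log2 fold change 1.38, SE 0.39, adjusted p = 0.0283 by edgeR). No exon base of Eif4ebp1 is shared with the other strand.

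Eif2d had 830.4, 894 and 1185 normalized CPM in the spleen, 1876, 1639, 1508 and 1792 at 24 hours, and 1057, 1373, 1024, 1217 and 1343 at 72 hours. The 24-hour values lay above all those of the other groups, while the spleen and 72-hour values overlapped. The 24-hour level was 1.76-fold that of the spleen (log2 fold change 0.81, SE 0.20, adjusted p = 0.0120 by edgeR). Eif2d alone gave 39.4% to 64.5% of the summed level of all 63 factors. With Eif2d the sum was 2150 ± 67.1 CPM in the spleen (SD, n = 3) and 2736 ± 178 CPM at 24 hours (SD, n = 4), and without it 1180 ± 138 and 1033 ± 69.5 CPM.

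Eef1a1, the tRNA carrier of elongation (chromosome 9, 78478449 to 78489151, minus strand), had 74.7, 73.9 and 21.2 normalized CPM in the spleen, 25.9, 27.6, 21.9 and 8.75 at 24 hours, and 59.1, 43.5, 75.8, 41.0 and 26.6 at 72 hours. The low spleen value was that of replicate 3, the library that stood apart in its granule genes, and it fell within the 24-hour range. The 24-hour level was 2.66-fold lower than in the spleen (log2 fold change -1.41, SE 0.42, adjusted p = 0.0376 by edgeR). Eef1b2 (chromosome 1, 63176825 to 63180486, plus strand), which recharges eEF1A with GTP and shares 9 exon bases with Ndufs1, had 24.6, 24.3 and 9.97 CPM in the spleen, 12.6, 6.60, 7.07 and 5.84 at 24 hours, and 13.6, 14.5, 17.0, 13.9 and 18.8 at 72 hours. Spleen replicate 3 again fell within the 24-hour range. The 24-hour level was 2.41-fold lower (log2 fold change -1.27, SE 0.41, adjusted p = 0.0497 by edgeR). This call was lost in 10 of 12 fits with a library left out, among them those without any 1 of the 72-hour libraries, and in 7 of 11 other alternatives.

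**Figure D2:**
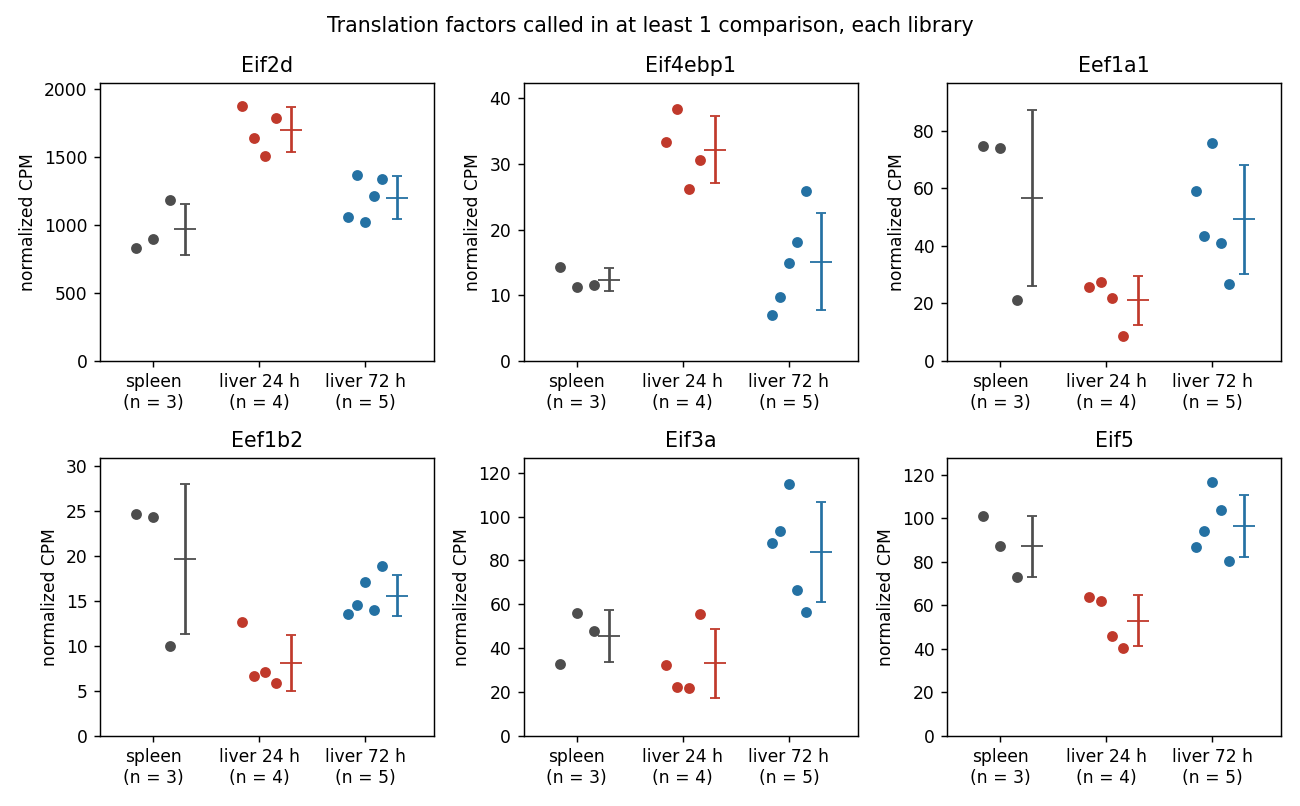
Normalized CPM in each of the 12 libraries (points) with the mean and SD of each group (bar to the right) for the 6 translation factors called in at least 1 comparison, on linear axes from 0. For Eif4ebp1 and Eif2d the 24-hour libraries lie above all spleen libraries, and for Eef1a1 and Eef1b2 spleen replicate 3 lies within the 24-hour range.

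None of these 4 calls was made without spleen replicate 1 or without spleen replicate 2, where 575 and 611 genes in all were called against 1218 with every library. With 24-hour replicate 1, 3 or 4 left out, 2 factors were called. Without spleen replicate 3, 5 factors were called, and the log2 fold change of Eef1a1 was at its lowest value of -1.81.

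All 7 tested elongation factor genes had a fitted difference below 0 at 24 hours. Eef2 had 53.3, 55.5 and 35.0 normalized CPM in the spleen, 28.4, 31.2, 19.8 and 21.2 at 24 hours, and 40.1, 35.2, 50.5, 32.7 and 27.9 at 72 hours. The 24-hour values lay below all spleen values, and the log2 fold change of -0.92 (SE 0.30) narrowly missed the threshold (adjusted p = 0.0529 by edgeR). Eef1g, a structural eEF1B subunit, fitted -1.77 (adjusted p = 0.0636 by edgeR) and Eif5a -0.59 (adjusted p = 0.231 by edgeR). The summed level of the 10 genes of this group was 196, 200.1 and 108 CPM in the spleen, 90.8, 96.6, 77.1 and 49.6 CPM at 24 hours, and 124.6 to 197 CPM at 72 hours. The 24-hour sums lay below those of every other library.

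**Figure D3:**
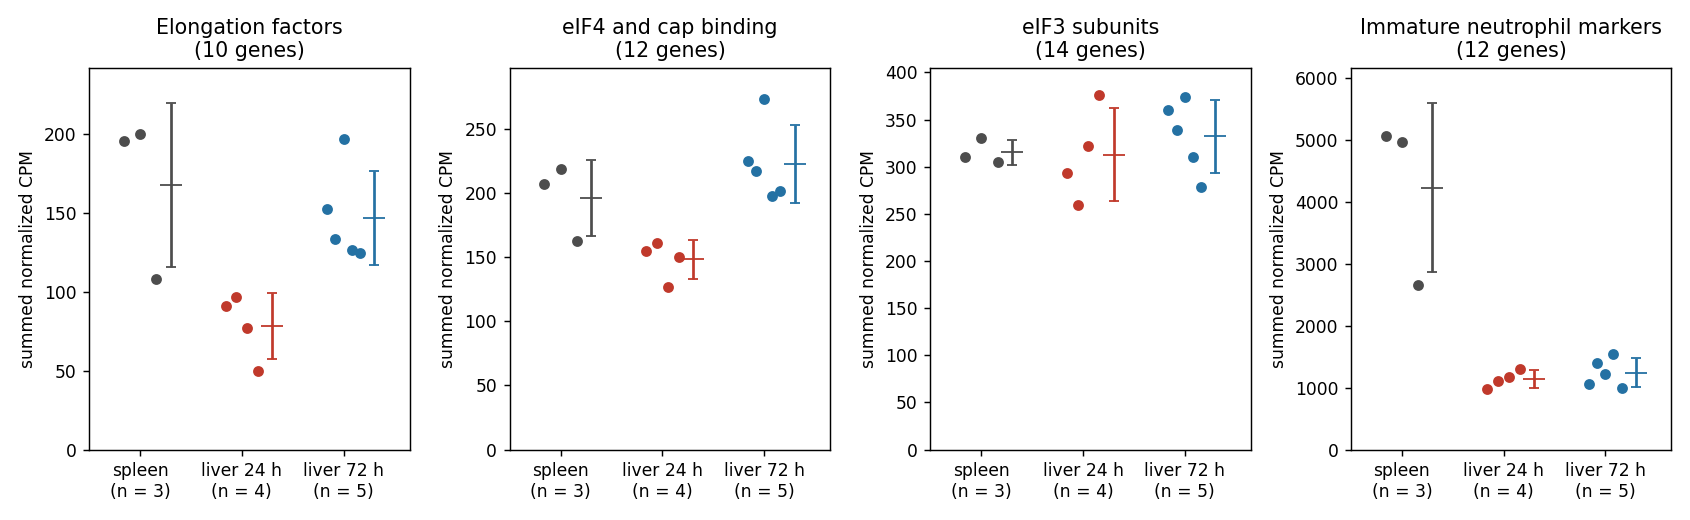
Summed normalized CPM per library (points) with the mean and SD of each group for 3 role groups of translation factors and for the immature neutrophil markers, on linear axes from 0. The 24-hour sums of the elongation factors, 49.6 to 96.6 CPM, lie below those of all other libraries, the eIF3 sums overlap between the groups, and the spleen lies highest for the immature markers, of which Mki67 alone gave 1277 to 6244 counts per library.

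Many mRNAs for elongation factors are TOP mRNAs: their 5′ end is a run of pyrimidines through which mTOR signaling controls their translation. The list used here names 9 such factors, Eef1a1, Eef1b2, Eef1d, Eef1g, Eef2, Eif3e, Eif3f, Eif3h and Eif4b. Of the 8 that were tested all 8 fitted below 0 at 24 hours, as did 7336 of all 12488 tested genes. The 2 called lower were Eef1a1 and Eef1b2, already given above. Of all tested genes 4.4% were called lower, and whether this short list differs from that share was not tested. Their median was -1.34 against -0.66 for all 52 factors, or -1.13 against -0.41 with genes at the floor set to their bound. Eef1a1, Eef1b2, Eef1d, Eef1g and Eef2 are also in the elongation group above, so the 2 lists are not separate observations. The RefSeq promoter table of GRCm38.p6 had 5 of the 9. Shown are 40 bases before and 20 bases from the annotated start, because the run at the start is what defines this class. Capitals mark the longest run of at least 5 C or T bases that reaches within 10 bases of the start.
Eef1a1 (chr9:78481705-78481764, minus strand): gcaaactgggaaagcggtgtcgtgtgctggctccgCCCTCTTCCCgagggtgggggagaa
Eif3f (chr7:108934375-108934434, plus strand): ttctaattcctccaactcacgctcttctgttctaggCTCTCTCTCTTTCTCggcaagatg
Eif4b (chr15:102073733-102073792, plus strand): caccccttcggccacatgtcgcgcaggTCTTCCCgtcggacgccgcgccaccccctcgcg
Eef2 (chr10:81176591-81176650, plus strand): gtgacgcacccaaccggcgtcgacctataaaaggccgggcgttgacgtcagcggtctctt
Eef1b2 (chr1:63176791-63176850, plus strand): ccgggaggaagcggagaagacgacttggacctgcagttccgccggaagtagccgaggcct

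A run was found in 3 of these 5 windows, 10 bases long in Eef1a1, 15 in Eif3f and 7 in Eif4b, and in none of the searched bases of Eef2 and Eef1b2. The runs of Eef1a1 and Eif3f span the annotated start, while that of Eif4b ends before it and so lies outside the annotated transcript. Such a run was held by 44.9% of all 32851 promoters listed there, searched on the gene's strand, and of the 47 translation factors with a promoter 18 did (38.3%), so the search does not set the factors apart. The start used for Eef1a1 lies 7427 bases from the outer end of its GENCODE gene model. Among the factors with a run, Eif3f had 11.1, 6.89 and 4.18 CPM in the spleen, 1.89, 3.60, 0.707 and 0.729 at 24 hours, and 1.95 to 8.05 at 72 hours. The groups at 24 hours and in the spleen did not overlap for Eif3f, but its counts were 1 to 6 per 24-hour library, and it was not called (means 7.40 and 1.73 CPM, adjusted p = 0.0584 by edgeR). Eif4b, a helper of the helicase eIF4A, differed by -0.41 (SE 0.29, adjusted p = 0.394 by edgeR).

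No eIF3 subunit was called at 24 hours, though 11 of the 12 tested fitted below 0, with a median of -1.18, or -0.78 with genes at the floor set to their bound. Most were read at few counts. Eif3k had 16, 13 and 3 counts in the spleen libraries and 0, 4, 0 and 0 at 24 hours, and Eif3i 10, 1 and 3 against 0, 0, 1 and 0. Eif3j1, the only subunit above 0, had 214 to 231 CPM in the spleen and 216 to 305 CPM at 24 hours, and the groups overlapped (log2 fold change 0.23, SE 0.21).

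All 11 tested genes of the cap-binding and eIF4 group fitted below 0 at 24 hours, with a median of -0.41, and none was called. The groups overlapped for Eif4a1, one of the helicases, at 17.5 ± 6.47 CPM (SD, n = 3) and 14.1 ± 3.85 CPM (SD, n = 4), and for Eif4g2, a scaffold that works without eIF4E, at 40.5 CPM and 34.1 CPM. Eif4e itself, the protein that binds the cap, was near the limit of detection, with 10, 9 and 2 counts in the spleen and 1, 3, 1 and 2 at 24 hours. The group's summed level was 162 to 218 CPM in the spleen, 126.6 to 161 CPM at 24 hours and 197 to 273 CPM at 72 hours.

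Among the scanning factors, Eif1, which keeps the scanning ribosome from stopping at a wrong codon, had 24.6, 16.7 and 9.003 CPM in the spleen, 34.7, 33.6, 26.2 and 26.3 at 24 hours, and 34.2, 35.2, 41.5, 22.2 and 24.7 at 72 hours. The 24-hour values lay above all spleen values, but the log2 fold change of 0.86 (SE 0.35) was not called (adjusted p = 0.123 by edgeR). Eif5, which triggers GTP hydrolysis on eIF2 at the start codon, went the other way, with 101, 87.0 and 73.0 CPM in the spleen and 63.7, 61.8, 46.0 and 40.1 at 24 hours. These groups did not overlap, and the log2 fold change of -0.71 (SE 0.25) missed the threshold (adjusted p = 0.0752 by edgeR). DESeq2's Wald test and edgeR with filterByExpr called it, and its adjusted p ranged from 0.0392 to 0.250 over all alternatives. Eif6, which keeps the large subunit from joining, had 5, 14 and 4 counts in the spleen and 2, 0, 0 and 1 at 24 hours.

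The genes of the core of eIF2 and eIF2B were not called in any comparison, and apart from Eif2b4, with 70 to 306 counts per library, most were read at few counts. Eif2s2, the beta subunit of eIF2, was the best measured of the 3 eIF2 subunits, with 15 to 20 counts in the spleen and 10 to 16 at 24 hours. Eif2s1, the subunit whose phosphorylation shuts down initiation under stress, had 7, 10 and 4 counts against 5, 2, 3 and 0. Eif2b4 had 71.8 CPM in the spleen and 56.6 CPM at 24 hours, with overlapping groups, and shares 204 exon bases with Snx17. The other 4E-binding protein tested, Eif4ebp2, had 11.6, 25.0 and 29.9 CPM in the spleen and 51.7, 31.2, 20.5 and 39.4 at 24 hours, which overlapped (log2 fold change 0.68, SE 0.37, adjusted p = 0.244 by edgeR).

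At 72 hours none of the 52 factors differed from the spleen by the same test, against 2.63% of all genes called higher and 2.71% called lower. An unadjusted p below 0.05 by edgeR was reached by 3 of the 52 factors, Eif4e3, Eif1 and Eif3a. This is a smaller share than the 2134 of all 12488 tested genes. Both limma-voom and DESeq2's Wald test called 1 factor, Eif4e3, lower. The fitted difference was above 0 for 33 factors and below 0 for 19, with a median log2 fold change of 0.15 against -0.02 for all genes. Without spleen replicate 3 this direction turned, with 25 factors above 0, 27 below and a median of -0.05 against 0.03 for all genes, and without 72-hour replicates 2 and 3 the median was 0.02.

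Eif4e3 encodes another cap-binding protein of the eIF4E family. It had 10, 18 and 13 counts in the spleen libraries, 7, 2, 0 and 0 at 24 hours, and 2, 0, 2, 2 and 1 at 72 hours. All 72-hour values lay below all spleen values, and with a whole group at 3 counts or fewer no fold is given (adjusted p = 0.0785 by edgeR). Eif3a, the largest eIF3 subunit, had higher values in every 72-hour library than in any spleen library, with a log2 fold change of 0.89 (SE 0.32, adjusted p = 0.125 by edgeR). The margin was narrow, with a lowest 72-hour value of 56.5 CPM and a highest spleen value of 55.8 CPM. Eif1 had a log2 fold change of 0.94 (SE 0.34, adjusted p = 0.123 by edgeR), with overlapping groups.

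The called factors of the earlier time stood nearer the spleen at 72 hours. Their log2 fold changes at 72 hours, on the same 3 spleen libraries, were 0.27 (95% CI -0.51 to 1.04) for Eif4ebp1, 0.31 (95% CI -0.09 to 0.71) for Eif2d, -0.19 (95% CI -0.998 to 0.621) for Eef1a1 and -0.33 (95% CI -1.08 to 0.43) for Eef1b2. None passed the threshold against the spleen, which does not show that they equaled the spleen. In the main fit none of them was called at 72 against 24 hours either. The adjusted p by edgeR was 0.0590 for Eif4ebp1, 0.0967 for Eif2d, 0.0715 for Eef1a1 and 0.150 for Eef1b2. The median of the 7 elongation factor genes was -0.33 and that of the 8 scanning genes 0.38, all 8 of which fitted above 0 with none called.

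**Figure D4:**
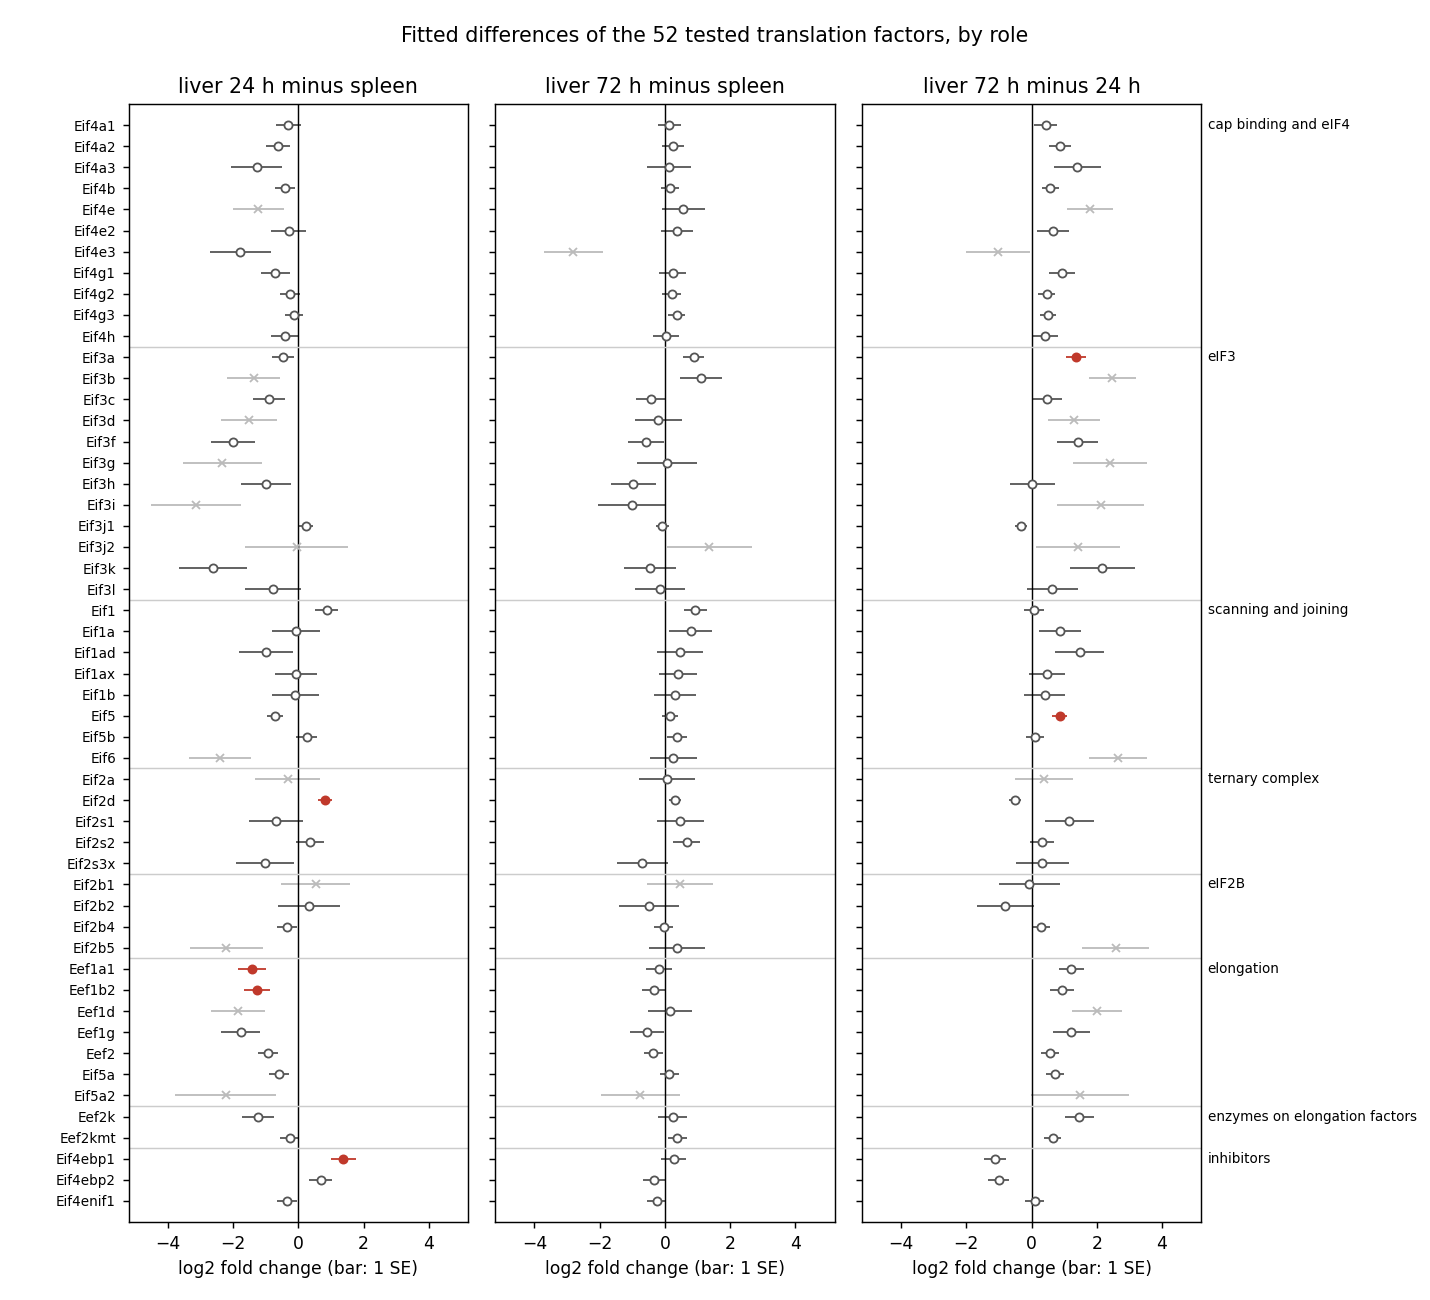
Fitted log2 fold change (point) with 1 SE (bar) of the 52 tested translation factors in the 3 comparisons, grouped by role. Filled red points passed the test, and grey crosses mark genes with a group at 3 counts or fewer in every library, whose fitted value depends on the prior count; most points lie left of 0 at 24 hours against the spleen (43 of 52) and right of 0 at 72 hours against 24 hours (45 of 52).

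Between the liver groups, 2 factors were higher in 72-hour than in 24-hour neutrophils, Eif3a and Eif5, and none was called lower. Eif4ebp1 was called lower with upper-quartile scaling, without a filter, with filterByExpr, limma-voom, DESeq2's Wald test, the replicate block and the fit of genes without shared exon bases. Over all genes 1.65% were called higher and 2.84% lower. An unadjusted p below 0.05 by edgeR was reached by 23 of the 52 factors and by 2616 of all 12488 tested genes. The fitted difference was above 0 for 45 factors and below 0 for 7, with a median log2 fold change of 0.65, or 0.51 with genes at the floor set to their bound, against 0.18 and 0 for all genes. The 24-hour libraries enter both this comparison and that with the spleen, so the opposite directions are not separate observations.

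Eif3a (chromosome 19, 60761117 to 60790658, minus strand) had 32.5, 55.8 and 47.9 normalized CPM in the spleen, 32.2, 22.2, 21.9 and 55.4 at 24 hours, and 87.8, 93.6, 115, 66.7 and 56.5 at 72 hours. All 72-hour values lay above all 24-hour values, by a narrow margin between the highest of the one and the lowest of the other. The level at 72 hours was 2.56-fold that at 24 hours (log2 fold change 1.36, SE 0.30, adjusted p = 0.0139 by edgeR). Eif5 (chromosome 12, 111538016 to 111546752, plus strand) had 86.7, 94.0, 117, 103.5 and 80.5 CPM at 72 hours, above all of its 24-hour values given before. It was 1.82-fold higher (log2 fold change 0.86, SE 0.23, adjusted p = 0.0329 by edgeR). Neither gene has exon bases shared with the other strand.

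Neither gene was called when 72-hour replicates 2 and 3, the libraries with few unaligned reads, were left out together (adjusted p = 0.0947 for Eif3a and 0.138 for Eif5 by edgeR). No factor was called without 24-hour replicate 1 or 2, 1 without 24-hour replicate 4 or 72-hour replicate 1, 2 or 3, 6 without spleen replicate 3 and 4 without 72-hour replicate 5. The calls over all genes moved too, from 561 to 182 without 24-hour replicate 1, 252 without 24-hour replicate 2, 244 without 72-hour replicate 3 and 197 without 72-hour replicates 2 and 3.

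Some other factors came near the threshold. Eif3b, a core scaffold subunit of eIF3, had 2, 0, 3 and 2 counts at 24 hours and 19, 30, 20, 2 and 8 at 72 hours (adjusted p = 0.0513 by edgeR). Eif4ebp1 fitted -1.11 (SE 0.34, adjusted p = 0.0590 by edgeR) and Eif4ebp2 had a mean of 18.0 CPM at 72 hours against 35.7 CPM (adjusted p = 0.0774 by edgeR), so that both 4E-binding proteins tested had lower values at 72 hours, with no overlap for Eif4ebp1 and a small one for Eif4ebp2. Eef2k, the kinase that stops elongation by phosphorylating eEF2, had 8.20, 1.80, 8.49 and 8.02 CPM at 24 hours and 14.1, 10.7, 22.0, 20.1 and 24.7 at 72 hours, without overlap (log2 fold change 1.47, SE 0.45, adjusted p = 0.0629 by edgeR). Eef1a1 fitted 1.23 (SE 0.39, adjusted p = 0.0715 by edgeR), and its groups overlapped by the lowest 72-hour library.

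By role, the medians of this comparison were 1.39 for eIF3, or 0.56 with bounds, 1.22 for elongation and 0.57 for the cap-binding and eIF4 group. Values above 0 were fitted for 11 of 12, 7 of 7 and 10 of 11 genes of these groups, and 1 gene in all of them, Eif3a, was called. All 8 tested TOP mRNAs fitted above 0 with a median of 1.08, or 1.03 with bounds, and none was called. They include Eef1a1, Eef1b2, Eef1d, Eef1g and Eef2 of the elongation group.

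The genes that act on these factors or work beside them were tested in the same fit. Over all tested genes 5.35% were called higher and 4.4% lower at 24 hours against the spleen. The shares were 2.63% and 2.71% at 72 hours against the spleen, and 1.65% and 2.84% at 72 against 24 hours. Whether any of the short lists below differs from these shares was not tested. Of the 6 genes for eIF2 kinases and phosphatase subunits, Ppp1r15a was higher at 72 hours than in the spleen (log2 fold change 3.61, SE 0.63, adjusted p = 8.4e-04 by edgeR) and than at 24 hours (1.83, adjusted p = 0.0426 by edgeR), and no kinase gene was called. Ppp1r15a encodes GADD34, which brings a phosphatase to eIF2. Its counts at 72 hours were 89, 279, 486, 27 and 31, so 72-hour replicates 2 and 3 held the most, and it shares 12 exon bases with Tulp2. Of the 6 tested targets of eIF2 phosphorylation, Ddit4 was higher at 24 hours with 3 to 11 counts against 0 to 2 in the spleen, and Chac1 was higher at 72 than at 24 hours with 4 to 16 counts against 0 to 2. Atf4 was not called in any comparison.

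In the mTOR branch 2 of 11 tested genes were lower at 24 hours than in the spleen, against 4.4% of all tested genes. Mlst8, a subunit of both mTOR complexes, had 20 to 36 counts in the spleen and 0 to 4 at 24 hours, and shares 997 exon bases with Bricd5. Rps6, the ribosomal protein that S6 kinase phosphorylates, had 17 to 33 counts against 0 to 4. Larp4, a poly(A)-tail protein, was lower at 24 hours (log2 fold change -1.77, SE 0.52, adjusted p = 0.0349 by edgeR). Of the termination and recycling genes, Abce1, which splits the ribosome after termination, was higher at 72 than at 24 hours, with 1 to 14 counts against 0 to 1.

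Of 8 tested mitochondrial translation factors, Tsfm was lower at 24 hours than in the spleen (log2 fold change -1.51, SE 0.40, adjusted p = 0.0177 by edgeR). Gfm1, the mitochondrial counterpart of eEF2, was lower at 72 hours than in the spleen (-2.04, SE 0.41, adjusted p = 0.0032 by edgeR) and than at 24 hours (-1.98, adjusted p = 0.0074 by edgeR). Mtrf1 had 3 to 17 counts in the spleen and 0 to 1 at 72 hours and was called lower. None of the 3 rescue and reinitiation genes, the 2 MAP kinase interacting kinases or the 2 hypusine enzymes, which modify eIF5A, was called in any comparison.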

How the data were processed

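Per the labels, RNA of sorted neutrophils was sequenced with a stranded mRNA kit. The authors aligned the reads to GRCm38 (STAR 2.7.9a is named in the submitters' processing notes), assigned them to genes with HTSeq-count, and deposited the raw counts of 12 libraries in 1 table, not normalized. Its 5 summary rows, which name no gene, were left out; reads on no gene were 96.8% to 97.3% of the uniquely aligned reads.

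Genes with more than 1 CPM in at least 3 libraries were kept, scaled by TMM and tested with edgeR 4.0.16 (quasi-likelihood, R 4.3.3) in 1 fit of 12 libraries with group as the only term, Benjamini-Hochberg over 12488 genes, calling genes at an adjusted p under 0.05 whose log2 fold change was 0.5 or more in size. The fits kept edgeR's default prior count, and a prior count of 2 was used only for log2 CPM values of single libraries. Normalized CPM use the TMM-scaled library size. The code was tested on simulated data. Gene positions and shared exon bases were taken from GENCODE for GRCm38, promoters from RefSeq.

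Alternatives were other scalings and filters, limma-voom of limma 3.58.1, DESeq2 1.42.0, fits of 2 groups, a replicate block, other fold limits, a fit of all genes without shared exon bases, and each library left out in turn. Groups are those of the labels. The members, lists and tests were chosen with earlier results of these data known. Members called in any comparison, and Eif5, are given in full. In other role groups the members with the highest level per kb or the smallest p were named, and any further member, such as Eif4e or Eif3i, was named after its values were seen. Intervals cover the fitted spread, and a floor of 3 counts covers counting error only.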

Additional observations from a re-analysis of the deposited data

Results flagged for a closer look

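The difference between the liver groups was itself tested for each factor, and for Eif3a and Eif5 it passed the threshold while neither gene was called against the spleen. The log2 difference between 72 and 24 hours was 1.36 for Eif3a and 0.86 for Eif5. Both liver groups were set against the same 3 spleen libraries, so their 2 spleen comparisons share that reference. For Eif3a the 24-hour values lay within or below the spleen range, and for Eif5 the 72-hour and spleen values overlapped.

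Of the 14 groups of 4 or 5 libraries examined for the reported factors, 0 had a library far from the others by Dixon's criterion at the 95% level. Only liver groups were examined. The spleen group of 3 libraries, whose replicate 3 stood apart, was not.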

How the results depend on the processing

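At 24 hours against the spleen the number of factors called was 4, 2 of them higher, among 1218 called genes in all. It was 8 with filterByExpr (2 higher, 6 lower, of 1251 in all), 8 with DESeq2's Wald test (2 higher, 6 lower, of 1569), 2 with limma-voom (both higher, of 1200), 2 with fits of 2 groups (both higher, of 1125), 2 when all genes with shared exon bases were left out and the rest refitted (1 in each direction, of 552), and 0 to 5 when a library was left out. At 72 hours against the spleen it was 0, and 1 without a filter, with limma-voom, with DESeq2's Wald test and with fits of 2 groups, in each case Eif4e3 as lower, and 0 under every library left out. At 72 against 24 hours it was 2, both higher, among 561 called genes in all, and 6 without a filter (5 higher, of 823), 4 with filterByExpr (3 higher, of 671), 8 with DESeq2's Wald test (5 higher, and Eif2d, Eif4ebp1 and Eif4ebp2 lower, of 986), 1 with a fold limit of 1, 0 without 72-hour replicates 2 and 3, and 0 to 6 when a library was left out. The causes were not tested.

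Libraries with the same replicate number did not pair: 1 of 10 same-number pairs had a correlation of deviations over 0.1 (range -0.12 to 0.13). With the replicate block 3, 0 and 4 factors were called.

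None of the 7 fold changes of Eif2d, Eif4ebp1, Eef1a1, Eef1b2, Eif3a and Eif5 (which has 2) reversed, and those of the other factors were not recomputed for this. Eif2d lost its call without spleen replicate 1 (adjusted p = 0.0864 by edgeR) or 2, and with a fold limit of 1. Eif4ebp1 lost it without any 1 of the spleen replicates or 24-hour replicate 1 or 2 (adjusted p up to 0.110), Eef1a1 without spleen replicate 1 or 2 or 24-hour replicate 1, 3 or 4 (up to 0.165), with limma-voom (0.112) and with fits of 2 groups. Eef1b2 kept it in 2 of 12 fits with a library left out, those without spleen replicate 3 or 24-hour replicate 1, and in 4 of 11 others (adjusted p up to 0.191). Eif3a lost it without 24-hour replicate 1 or 2 (up to 0.0593), and Eif5 without any 1 of the 24-hour replicates or 72-hour replicate 1, 2 or 3 (up to 0.0960) and in the refit of genes without shared exon bases (0.134).

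The median log2 fold changes of the factors moved by less than 0.24 under every alternative. This limit is the SD between single libraries of their median level, not the error of a difference between groups. At 24 hours against the spleen the median of -0.66 ranged from -0.81 without 24-hour replicate 1 to -0.43 with filterByExpr. With filterByExpr the median of all genes was -0.13. In the 23 factors with a mean of at least 20 counts the main fit gave -0.34. The median of 72 hours against the spleen, 0.15, changed sign without spleen replicate 3 (-0.05). It was 0.07 without 72-hour replicate 3 and 0.02 without 72-hour replicates 2 and 3. Of the 52 tested factors, 29 had a mean under 20 counts per library, at which the counting error is large.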
